A study of Mus musculus with 4 samples.

Results

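The genes described here encode subunits, inhibitors and attenuators of NF-kappaB, and 10 were taken from a list of symbols: Nfkb2, Rel, Rela, Relb, Nfkbia, Nfkbib, Nfkbie, Nfkbiz, Tnfaip3 and Bcl3. They are 10 of 18193 named genes on the array and are covered by 20 of 45037 probe sets, a probe set being a group of short array probes that reads 1 transcript or a few related ones. The main probe set of a gene is the one whose deposited values averaged highest. All 20 probe sets were compared, and 4 of the 10 genes had only 1.

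NF-kappaB proteins are dimers of Rel family subunits that are held inactive by inhibitors of the IkB family. In the canonical route, a receptor such as the T cell receptor activates a kinase complex that marks IkB proteins for destruction, and dimers containing RelA or c-Rel enter the nucleus. In the alternative route, receptors of the TNF receptor family lead to processing of the Nfkb2 precursor, which then acts with RelB. Regulatory T cells depend on this pathway during their development in the thymus, with c-Rel the subunit best known for a role there.

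Several of these genes are known to be controlled by NF-kappaB itself, so their promoters are shown for the bases that NF-kappaB dimers are known to read. The RefSeq promoter table, on build GRCm38.p6, held 11 windows for 8 of the 10 genes, each of 250 bases before an annotated start and 50 after it. Both strands were searched for the degenerate 10-base kappaB consensus. The consensus was found in 8 of the 11 windows, or 72.7%, against 8.46% of all 32851 windows. Of the 3 Nfkb2 windows, 2 overlap and share a match. The windows without a match were those of Rela and Nfkbib and 1 of Tnfaip3. The sequences below are the 250 bases before a start of Nfkb2, Tnfaip3 and Nfkbie, the genes with windows whose main signal spanned at least 1 log2 over the arrays. That of Rela is added as 1 without a match. They are printed 5′ to 3′ in the direction of the gene, with matches of the kappaB consensus in capitals:
Nfkb2, first start, chr19:46304487-46304736, plus strand: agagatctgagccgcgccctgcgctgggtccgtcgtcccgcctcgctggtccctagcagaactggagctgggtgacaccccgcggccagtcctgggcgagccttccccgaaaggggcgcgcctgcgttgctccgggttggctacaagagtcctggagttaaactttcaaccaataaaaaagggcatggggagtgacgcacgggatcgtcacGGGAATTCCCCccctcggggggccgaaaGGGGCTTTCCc
Nfkb2, last start, chr19:46305680-46305929, plus strand: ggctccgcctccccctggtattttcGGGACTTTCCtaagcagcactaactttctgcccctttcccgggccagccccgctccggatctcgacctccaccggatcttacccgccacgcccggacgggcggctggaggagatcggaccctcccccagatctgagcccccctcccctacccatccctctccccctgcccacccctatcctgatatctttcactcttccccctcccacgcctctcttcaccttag
Tnfaip3, chr10:19015411-19015660, minus strand: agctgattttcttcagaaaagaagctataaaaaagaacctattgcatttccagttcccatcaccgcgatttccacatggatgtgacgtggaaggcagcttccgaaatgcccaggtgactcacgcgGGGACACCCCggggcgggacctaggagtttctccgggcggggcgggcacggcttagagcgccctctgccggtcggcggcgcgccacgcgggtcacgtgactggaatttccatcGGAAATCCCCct
Nfkbie, chr17:45555450-45555699, plus strand: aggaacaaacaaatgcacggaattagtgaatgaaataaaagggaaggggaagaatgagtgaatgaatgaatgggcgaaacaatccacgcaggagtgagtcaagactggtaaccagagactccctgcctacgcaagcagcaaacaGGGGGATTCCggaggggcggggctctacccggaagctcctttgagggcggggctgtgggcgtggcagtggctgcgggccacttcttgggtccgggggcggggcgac
Rela, chr19:5637291-5637540, plus strand: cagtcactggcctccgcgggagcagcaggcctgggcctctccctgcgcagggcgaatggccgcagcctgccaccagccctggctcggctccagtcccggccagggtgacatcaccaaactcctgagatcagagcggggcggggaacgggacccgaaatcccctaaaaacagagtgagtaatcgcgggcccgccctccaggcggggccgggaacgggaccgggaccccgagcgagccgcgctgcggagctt

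Before the first start of Nfkb2, 2 overlapping matches began at positions -39 and -38 relative to the start, and another, GGGGCTTTCC, began at -11. The last start of Nfkb2 was preceded by GGGACTTTCC at -225. In Tnfaip3, the matches were GGGACACCCC at -125 and GGAAATCCCC at -12. In Nfkbie, GGGGGATTCC began at -106. Nfkbia, whose promoter is not printed, had GGAAATTCCC at -29. Also not printed, Rel had overlapping matches at -92 and -91, and Bcl3 had GGGAAGTCCC at 2, after the start. The main signals of Nfkbia, Rel and Bcl3 spanned only 0.52, 0.09 and 0.51 log2 over the arrays, so matches were not limited to genes with wide spans. A match describes these letters and says nothing of binding in these cells.

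CD4+ CD8- thymocytes of female mice aged 6 to 8 weeks were sorted into 4 populations, and the RNA of each was read on 1 Affymetrix mouse expression array. Foxp3-null GFP+ cells came from Foxp3(gfpko/wt) females, which carry 1 GFP-marked knockout allele and 1 wild-type allele of the X-linked gene Foxp3, so other cells of these mice use the wild-type allele. Foxp3-fusion GFP+ cells, GFP- CD25+ cells and GFP- CD25- cells came from Foxp3(gfp/gfp) homozygotes, in which all Foxp3 is a GFP-Foxp3 fusion. Each GFP- population therefore carries the fusion alleles too, and no array holds cells of mice without an altered Foxp3 allele. The strain was C57BL/6 backcrossed from 129/Sv for 2 generations in the Foxp3-null array and for 4 to 6 in the others, so genotype, strain background and array cannot be told apart in any comparison with Foxp3-null cells. The sources used here do not say how many mice stand behind an array. Every difference below is between 1 array and another, with no replicate check, no error and no p-value.

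Values are log2 signals after quantile normalization of the deposited table, which gives the arrays the same distribution of signals. Differences in the values as deposited are given beside them where they matter, because the 90th percentile of the deposited log2 signals was 7.54 on the Foxp3-null array, 8.16 on the Foxp3-fusion array, 7.63 on the GFP- CD25+ array and 7.90 on the GFP- CD25- array. The floor, 3.87 log2, is the level below which most genes of other tissues lay, and lower values were set to it before a difference was taken. Of the 10 main probe sets, 8 were above the floor on all 4 arrays, Relb on 3 and Rel on none. Foxp3 itself read 7.27 log2 in Foxp3-null cells, 8.82 in Foxp3-fusion cells, 2.88 in GFP- CD25+ cells and 2.76 in GFP- CD25- cells. GFP marks use of its locus and was sorted on, so this is no finding, and the sources used here do not say whether the probe set reads the part that the knockout lacks. All 9 measured CD4 T lineage markers were above the floor on every array, and of 5 CD8 lineage markers 3 or 4 were above it on each. Of these, the CD8 chain gene Cd8a read 4.42 to 4.78 log2 and Eomes 4.74 to 6.19 over the arrays, and the other chain gene, Cd8b1, was under the floor on all. Nkg7 read 6.25 log2 in Foxp3-null cells, 5.88 in Foxp3-fusion cells, 2.95 in GFP- CD25+ cells and 4.95 in GFP- CD25- cells. Runx3 read 3.23, 4.43, 4.53 and 5.50 log2 in that order. The B cell markers Cd79a, Pax5, Blnk and Cd22 and the dendritic cell and macrophage markers Itgax, Lyz2, Cd74, H2-Ab1, Siglech, Fcer1g and Tyrobp were under the floor on all arrays. Above it on all 4 were the B cell marker Ms4a1, the class II gene H2-Aa and the macrophage marker Adgre1, at 3.92 to 5.63, 5.16 to 6.68 and 4.15 to 5.21 log2, and Csf1r was above it in Foxp3-null cells, at 5.50, and in GFP- CD25+ cells, at 4.57. The gap between the 3′ and 5′ actin control probe sets, which widens as cDNA is shortened, was 7.10 log2 on the Foxp3-null array, 5.02 on the Foxp3-fusion array, 9.29 on the GFP- CD25+ array and 8.37 on the GFP- CD25- array. What part RNA quality has in the differences was not tested.

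**Figure D1:**
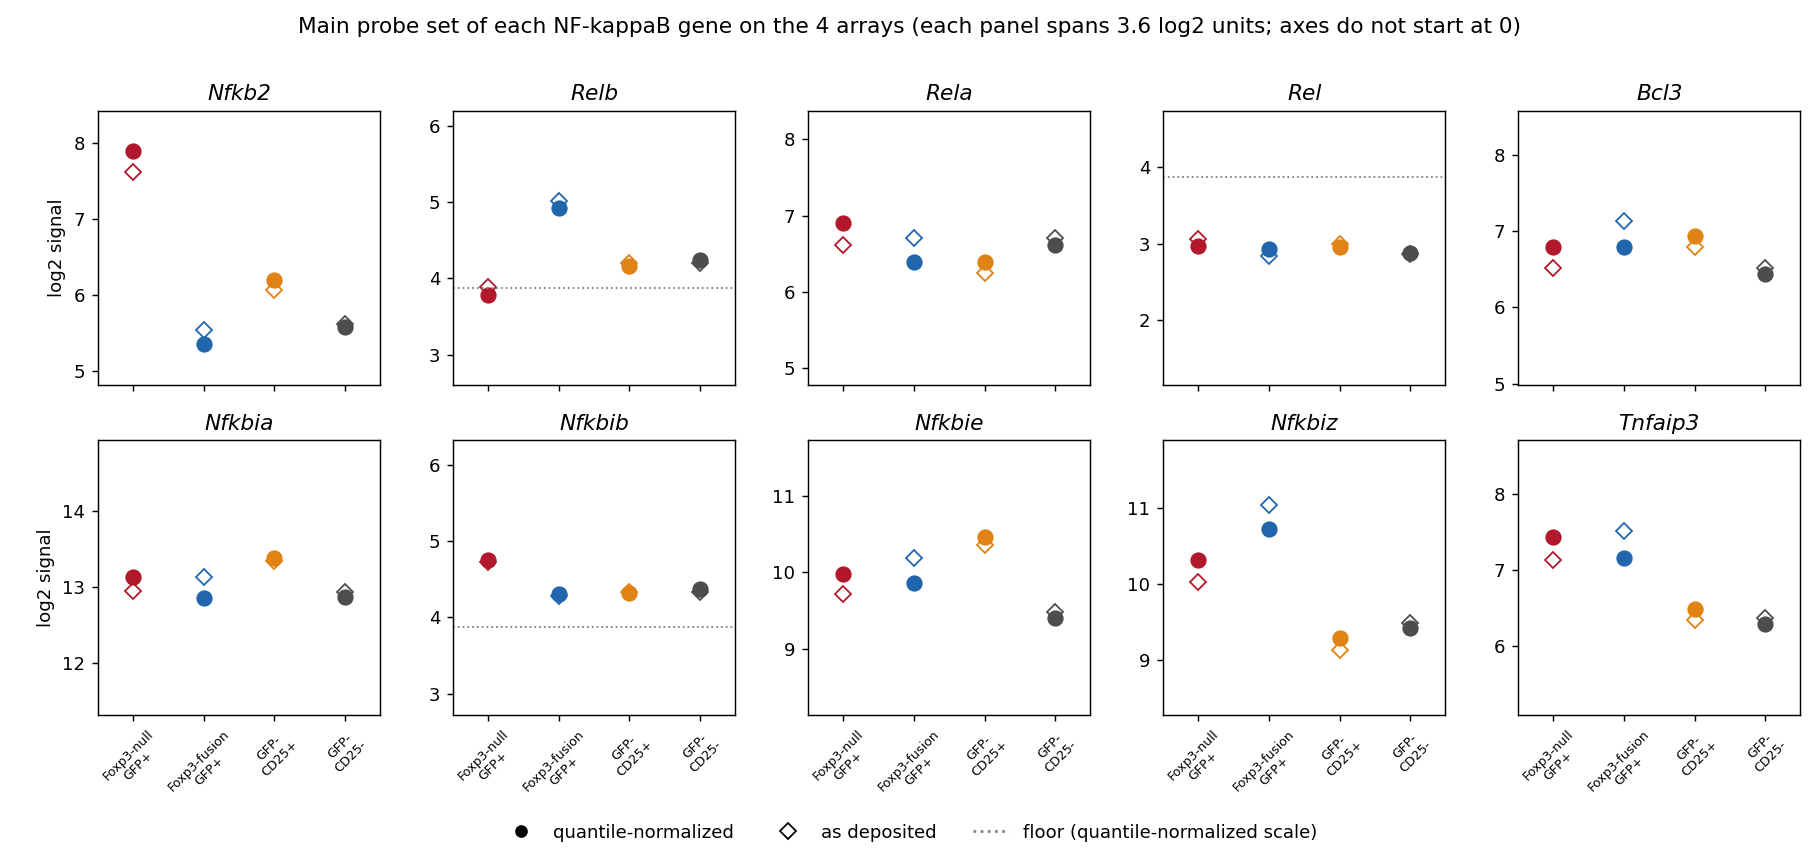
Log2 signal of the main probe set of each gene on the 4 arrays, 1 panel per gene, with filled circles for quantile-normalized values, open diamonds for values as deposited and a dotted line for the floor of 3.87 log2. Nfkb2 was highest on the Foxp3-null array at 7.89, Relb and Nfkbiz were highest on the Foxp3-fusion array, and Rel lay under the floor throughout.

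Among the subunit genes listed, which do not include Nfkb1, Nfkb2 stood apart on the Foxp3-null array. Nfkb2, whose product is the precursor of the alternative pathway subunit and also acts as an inhibitor until it is processed, read 7.89 log2 in Foxp3-null cells, 5.36 in Foxp3-fusion cells, 6.20 in GFP- CD25+ cells and 5.58 in GFP- CD25- cells. The other 3 arrays lay within 0.84 log2 of each other, and the Foxp3-null array lay 1.69 above the next. Its second probe set gave the same high array, with 6.97 log2 in Foxp3-null cells, 5.34 in Foxp3-fusion cells, 5.30 in GFP- CD25+ cells and 4.88 in GFP- CD25- cells. On the main probe set Nfkb2 was 5.78-fold higher in Foxp3-null than in Foxp3-fusion cells, 3.23-fold higher than in GFP- CD25+ cells and 4.93-fold higher than in GFP- CD25- cells. The second probe set gave log2 differences of 1.63, 1.67 and 2.09 in that order. In values as deposited the main probe set gave 4.20-fold, 2.93-fold and 3.97-fold. Counted from the largest positive difference among genes measured on both sides, Nfkb2 had the place 12 of 7856 over Foxp3-fusion cells, 154 of 8103 over GFP- CD25+ cells and 56 of 8023 over GFP- CD25- cells. In such sorted populations, more cells that use a gene and more RNA per cell cannot be told apart. Summed linear signals of 6 B cell markers were also highest on the Foxp3-null array, at 78.5, with 50.8 on the Foxp3-fusion array, 56.1 on the GFP- CD25+ array and 46.9 on the GFP- CD25- array, and 1 of the 6, Ms4a1, was above the floor in Foxp3-null cells. Those of 11 dendritic cell and macrophage markers were 241, 139, 212 and 205 in that order, with 4 of the 11 above the floor in Foxp3-null cells. Those of 7 thymic epithelium markers were 209, 139, 192 and 167. Of these, 2 were above the floor on each array, Krt5 and Epcam, the latter at 6.49 to 7.28 log2. Those of 4 NK cell markers were 31.5, 29.8, 38.0 and 99.2, with Klrd1 at 6.32 log2 in GFP- CD25- cells. The part of these cell types in the Nfkb2 difference was not tested.

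Both Nfkb2 probe sets carry name endings that the array maker uses for probe sets able to match more than 1 transcript. Nfkb2 thus has no value when such probe sets are left out. In the comparison of Foxp3-fusion with GFP- CD25- cells, the Nfkb2 probe sets went opposite ways, by -0.23 log2 on the main one and 0.46 on the second. GFP- CD25+ cells exceeded GFP- CD25- cells on both, by 0.61 and 0.42.

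Relb, which encodes the partner of processed Nfkb2, ran differently. Its only probe set read 3.78 log2 in Foxp3-null cells, 4.92 in Foxp3-fusion cells, 4.17 in GFP- CD25+ cells and 4.24 in GFP- CD25- cells. All values were near the floor, and that of Foxp3-null cells was under it. Foxp3-null cells had at least 2.07-fold less Relb signal than Foxp3-fusion cells, and at least 2.15-fold lower in values as deposited. That call ended with a floor 1 log2 unit higher, at -0.05 log2, and with arrays centred on the median of bright probe sets, at -0.35. Foxp3-fusion cells exceeded GFP- CD25- cells by 1.61-fold (1.77-fold as deposited). In the deposited table the GFP- CD25+ and GFP- CD25- arrays had the identical value for Relb. Exact ties of this kind between arrays were found in 13.6% of all probe sets and in 3 of the 20 shown here, those of Relb, Rela and Bcl3.

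Rela, which encodes the main activating subunit of the canonical route, differed little between the populations. It read 6.90 log2 in Foxp3-null cells, 6.39 in Foxp3-fusion cells, 6.39 in GFP- CD25+ cells and 6.61 in GFP- CD25- cells. The Foxp3-null array was the highest after normalization, but not in values as deposited, where the 4 read 6.61, 6.71, 6.25 and 6.71 in that order. The difference of Foxp3-null from Foxp3-fusion cells had opposite signs on these scales, with 0.52 log2 normalized and -0.09 as deposited. Rel, which encodes c-Rel, read between 2.88 and 2.97 log2 on its only probe set, under the floor on all 4 arrays. No difference is given for it, and a probe set under the floor does not show that a transcript is missing.

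Of the genes for IkB proteins that hold dimers in the cytoplasm, Nfkbie was lowest in GFP- CD25- cells on both of its probe sets. Nfkbie, which encodes IkB-epsilon, read 9.97 log2 in Foxp3-null cells, 9.86 in Foxp3-fusion cells, 10.46 in GFP- CD25+ cells and 9.40 in GFP- CD25- cells. GFP- CD25+ cells exceeded GFP- CD25- cells by 2.09-fold on this probe set (1.85-fold as deposited, under the 2-fold mark). On the second probe set the values were 6.76, 6.38, 6.12 and 5.27 log2 in the same order. There the differences from GFP- CD25- cells were 1.49 log2 in Foxp3-null cells, 1.11 in Foxp3-fusion cells and 0.85 in GFP- CD25+ cells. The order of the 3 upper arrays thus changed with the probe set, while their place above the GFP- CD25- array did not, in normalized values and in those as deposited.

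Nfkbia, which encodes IkB-alpha, the fast feedback inhibitor of the canonical route, had 5 probe sets above the floor on all arrays, and they did not give 1 pattern. The main one read 13.13 log2 in Foxp3-null cells, 12.86 in Foxp3-fusion cells, 13.39 in GFP- CD25+ cells and 12.87 in GFP- CD25- cells, a range of 0.52. The next brightest read 11.66, 13.01, 13.12 and 12.41 log2 in the same order, with Foxp3-null cells lowest. The dimmest read 7.79, 6.32, 7.44 and 5.83, with Foxp3-null cells highest. Between Foxp3-null and Foxp3-fusion cells the 5 differences ran from -1.35 to 1.47 log2, with 2 above 0 and 3 below. GFP- CD25+ cells lay above GFP- CD25- cells on all 5, by 0.46 to 1.61 log2, and this was the only 1 of the 6 comparisons in which all 5 probe sets went the same way after normalization. In values as deposited they also did so in Foxp3-fusion over GFP- CD25- cells, by 0.20 to 1.68 log2. On the remaining probe sets Foxp3-fusion cells were highest, at 11.67 log2 against 10.62 in GFP- CD25- cells, and at 9.59 against 8.16.

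Nfkbib, which encodes IkB-beta, read 4.76 log2 in Foxp3-null cells, 4.31 in Foxp3-fusion cells, 4.32 in GFP- CD25+ cells and 4.37 in GFP- CD25- cells. The Foxp3-null array was the highest by 0.39 log2, also in values as deposited, with all values within 1 log2 unit of the floor. The second Nfkbib probe set did not pass the floor on any array.

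**Figure D2:**
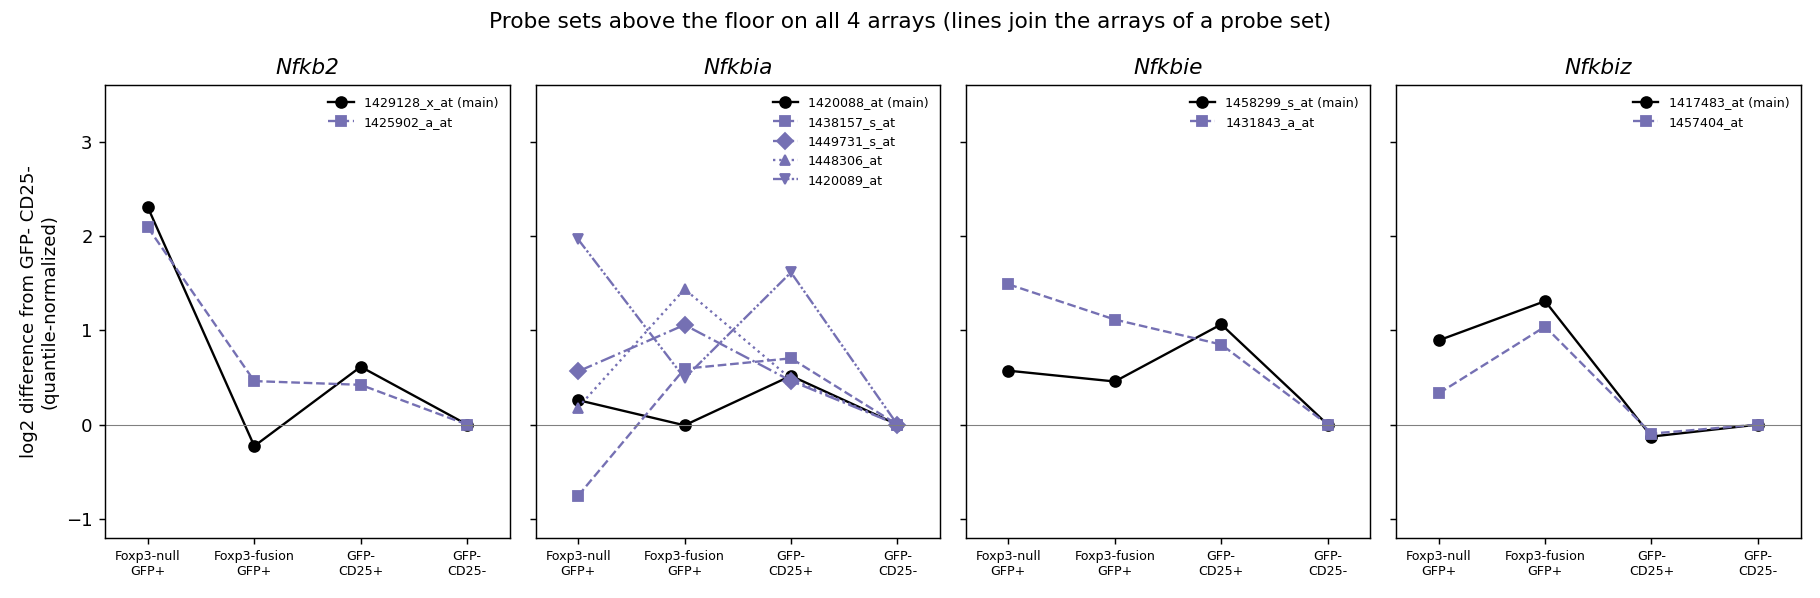
Log2 difference from the GFP- CD25- array for every probe set above the floor on all 4 arrays, for the 4 genes with more than 1 such probe set, in quantile-normalized values, with black for the main probe set. Both probe sets of Nfkb2 were highest in Foxp3-null cells, those of Nfkbiz shared the high Foxp3-fusion array, those of Nfkbie shared only the low GFP- CD25- array, and those of Nfkbia crossed, from -0.75 to 1.96 log2 in Foxp3-null cells.

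Of the nuclear IkB family proteins, Nfkbiz was higher in both GFP+ populations on its main probe set, and Bcl3 differed little. Nfkbiz, which encodes the inducible IkB-zeta, read 10.31 log2 in Foxp3-null cells, 10.73 in Foxp3-fusion cells, 9.29 in GFP- CD25+ cells and 9.42 in GFP- CD25- cells. On a second probe set the values were 7.75, 8.46, 7.32 and 7.42 in that order, and the last of its probe sets lay near or under the floor, from 3.59 to 3.97. After normalization, both bright probe sets put the Foxp3-fusion array first and the Foxp3-null array second. Foxp3-fusion cells exceeded GFP- CD25- cells by 2.48-fold (2.92-fold as deposited), and the second probe set gave 1.04 log2. Foxp3-null cells exceeded GFP- CD25- cells by 1.86-fold (1.44-fold as deposited), and the second probe set gave 0.33 log2 (-0.05 as deposited). Between Foxp3-null and Foxp3-fusion cells the difference was -0.42 log2 on the main probe set, or -1.02 as deposited, and -0.71 on the second.

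Bcl3, whose product is a nuclear partner of dimers without an activation domain, read 6.80 log2 in Foxp3-null cells, 6.79 in Foxp3-fusion cells, 6.94 in GFP- CD25+ cells and 6.43 in GFP- CD25- cells. No pair of arrays differed by 2-fold. In values as deposited the Foxp3-null and GFP- CD25- arrays were tied at 6.51, and Foxp3-fusion cells were highest at 7.13.

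Tnfaip3 encodes A20, a ubiquitin-editing enzyme that shuts off signalling to the IkB kinase. It read 7.43 log2 in Foxp3-null cells, 7.16 in Foxp3-fusion cells, 6.48 in GFP- CD25+ cells and 6.29 in GFP- CD25- cells. On this main probe set both GFP+ arrays lay above both GFP- arrays. The second Tnfaip3 probe set was under the floor on all arrays, at 1.76 to 1.78 log2. Relative to GFP- CD25- cells, Tnfaip3 was 2.21-fold higher in Foxp3-null cells (1.70-fold as deposited) and 1.83-fold higher in Foxp3-fusion cells (2.22-fold as deposited). Which of the GFP+ arrays passed the 2-fold mark therefore depended on the scale. Between Foxp3-null and Foxp3-fusion cells the difference was 0.27 log2, and -0.38 as deposited.

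**Figure D3:**
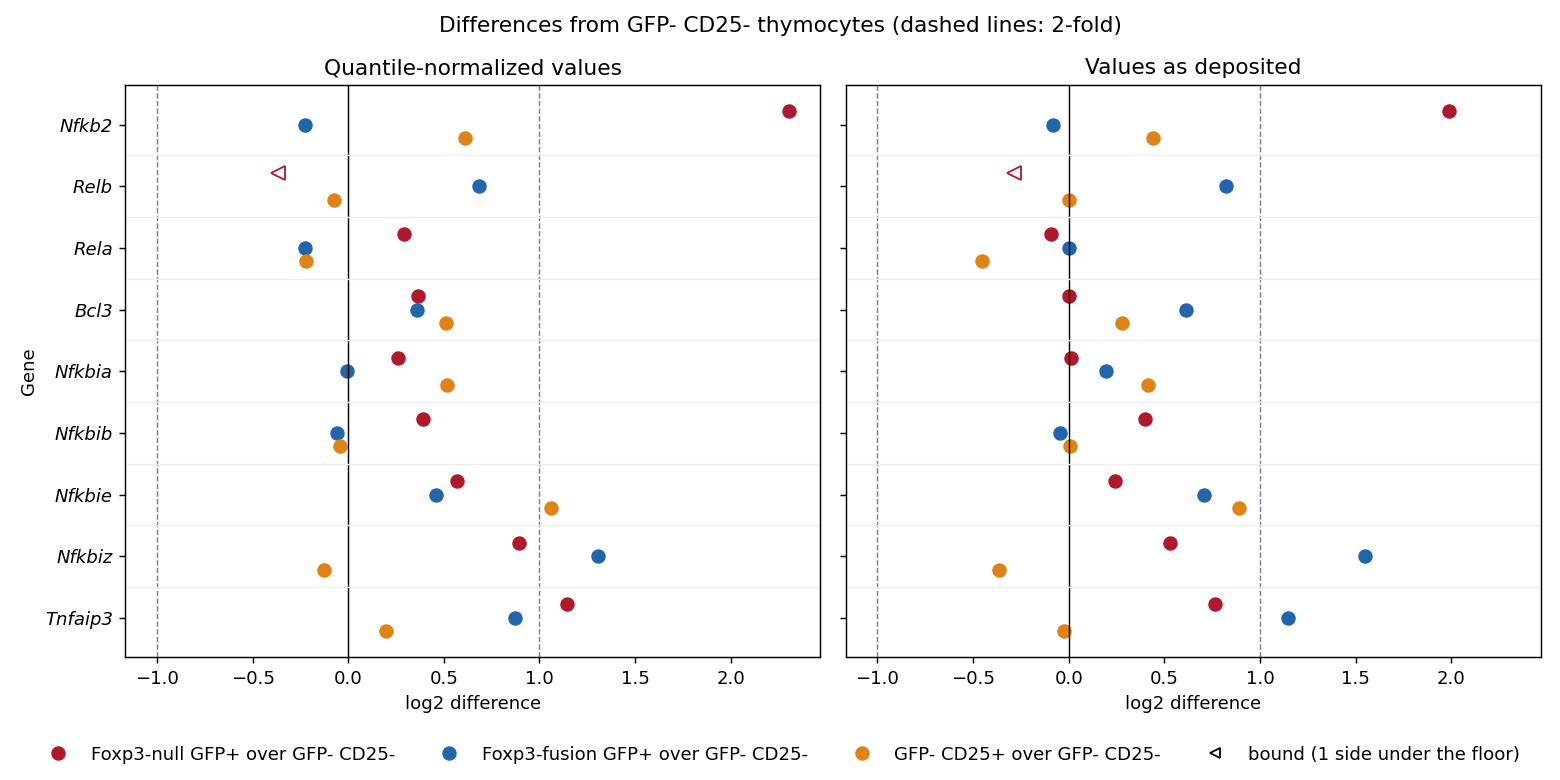
Log2 difference of each main probe set from the GFP- CD25- array, in quantile-normalized values on the left and in values as deposited on the right, with dashed lines at 2-fold and open triangles for bounds. Nfkb2 in Foxp3-null cells lay farthest from 0 on both sides, at 2.30 and 1.99, and Tnfaip3 changed sides of the 2-fold line between the scales in both GFP+ populations.

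Counted together, few of the genes were 2-fold apart between any pair of arrays, and each count lay within 2 genes of what the share among all genes would give for 9. In Foxp3-null over GFP- CD25- cells, 2 of 9 measured genes passed 2-fold upward (Nfkb2 and Tnfaip3) and 0 downward, against 10.4% of all measured genes upward and 7.16% downward. As deposited it was Nfkb2 alone, against 5.53% upward and 10.9% downward. In Foxp3-fusion over GFP- CD25- cells it was 1 of 9 upward (Nfkbiz) and 0 downward, against 9.64% and 5.06% of all genes. As deposited, Tnfaip3 joined Nfkbiz, against 14.2% and 3.51%. GFP- CD25+ over GFP- CD25- cells had 1 of 9 upward (Nfkbie) and 0 downward, against 3.93% and 4.39%, and as deposited 0 of 9 either way, against 2.7% and 6.82%.

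Foxp3-null over Foxp3-fusion cells gave 1 of 9 upward (Nfkb2) and 1 downward (Relb), against 9.53% of all genes upward and 9.15% downward. As deposited, Nfkbiz joined Relb on the lower side, against 4.65% upward and 18.6% downward, so the balance of all genes in this comparison turned with the scale. Foxp3-fusion over GFP- CD25+ cells had 1 of 9 upward (Nfkbiz, 2.71-fold) and 0 downward, against 11.2% and 7.93%. Tnfaip3 joined it as deposited, at 2.25-fold, against 20.0% and 3.46%. Foxp3-null over GFP- CD25+ cells had 2 of 9 upward (Nfkb2, 3.23-fold, and Nfkbiz, 2.03-fold) and 0 downward, against 8.24% and 7.02%. As deposited Nfkb2 was left alone, against 6.04% upward and 7.74% downward, with Nfkbiz at 1.86-fold.

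The medians over the genes were small and depended on the scale. The median log2 difference of the 9 genes was 0.39 in Foxp3-null over GFP- CD25- cells, where the median over all measured genes was 0.18, and 0.24 against 0.00 in values as deposited. It was 0.36 in Foxp3-fusion over GFP- CD25- cells, against -0.05 for all genes, and 0.62 against 0.08 as deposited. In GFP- CD25+ over GFP- CD25- cells it was 0.20 against 0.09, and 0.01 against 0.00 as deposited. Foxp3-null over Foxp3-fusion cells gave 0.27 against 0.14 after normalization, and -0.38 against -0.17 as deposited. In Foxp3-fusion over GFP- CD25+ cells it was -0.01 against -0.09, and 0.34 against 0.13 as deposited, so the median changed sign with the scale in these last comparisons. Foxp3-null over GFP- CD25+ cells gave 0.44 against 0.09, and 0.36 against 0.01 as deposited. These comparisons share arrays.

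Profiles over the 4 arrays were compared by the root mean square difference of log2 values after each profile was centred on its own mean, as a description over 4 arrays. The closest pair was Rela and Nfkbib at 0.07 log2, both nearly level with a slight excess in Foxp3-null cells. Nfkb2 was far from every other gene of the group, at 0.82 from its nearest, Tnfaip3, and 1.32 from Relb. Tnfaip3 and Nfkbiz, both high in the GFP+ populations, were 0.30 apart. Among 7714 other genes above the floor on all arrays, those nearest to Nfkb2 were Sec14l3 at 0.10, Tbr1 at 0.11 and Lce1d at 0.13. Within 0.25 of Nfkb2, whose profile spanned 2.53 log2, lay 17 genes. Nearest to Nfkbiz were Pgrmc1 at 0.05, Lrrc8c at 0.06 and the ribosomal protein gene Rps3 at 0.07, and nearest to Tnfaip3 were Eapp at 0.02, Med7 at 0.03 and the leukocyte gene Lsp1 at 0.03. For Nfkbie they were Ccnj at 0.05, C1qtnf12 at 0.07 and Tkt at 0.08, and for Relb they were Ubac2 at 0.02, Carf at 0.03 and Qk at 0.03. The genes within 0.25 numbered 409 for Relb, 361 for Tnfaip3, 318 for Nfkbie and 182 for Nfkbiz, so these profiles were common ones. They spanned 1.05 to 1.44 log2, less than that of Nfkb2, so its count of 17 cannot be set directly against theirs.

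A further IkB family gene on the array, Nfkbid, which encodes a nuclear regulator needed for regulatory T cell precursors, read 7.54 log2 in Foxp3-null cells, 6.70 in Foxp3-fusion cells, 7.41 in GFP- CD25+ cells and 7.33 in GFP- CD25- cells. The Foxp3-fusion array was lowest, by 0.63 log2, and no pair was 2-fold apart. Nfkbil1, another gene with that name stem, was under the floor on all arrays.

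Of the kinases and adaptors that lead to IkB destruction, 18 of 22 listed genes were on the array with a name, and few were 2-fold apart on main probe sets. Over GFP- CD25- cells, 2 of 16 measured genes were higher and 1 lower in Foxp3-null cells, 2 higher and 0 lower in Foxp3-fusion cells, and 1 higher and 0 lower in GFP- CD25+ cells. Among all genes 10.4% were higher and 7.16% lower in Foxp3-null cells, 9.64% higher and 5.06% lower in Foxp3-fusion cells, and 3.93% higher and 4.39% lower in GFP- CD25+ cells. As deposited, of 15 measured, 0 were higher and 1 lower in Foxp3-null cells, against 5.53% and 10.9% of all genes. In Foxp3-fusion cells 2 were higher and 0 lower, against 14.2% and 3.51%, and in GFP- CD25+ cells 0 in either direction, against 2.7% and 6.82%. The medians of the listed genes in normalized values were 0.37, -0.02 and 0.18 log2, against 0.18, -0.05 and 0.09 for all genes. Malt1, the protease subunit that links antigen receptors to the IkB kinase, read 6.88 log2 in Foxp3-null cells, 8.87 in Foxp3-fusion cells, 8.86 in GFP- CD25+ cells and 9.53 in GFP- CD25- cells. On this probe set Foxp3-null cells were 3.99-fold lower than Foxp3-fusion cells and 6.27-fold lower than GFP- CD25- cells. The other Malt1 probe sets gave 0.56 and -0.19 log2 in Foxp3-null over Foxp3-fusion cells, so the difference was not shared by them. Birc3, a ubiquitin ligase of TNF receptor signalling and itself a known target, was 2.28-fold higher in Foxp3-null cells, 2.50-fold in Foxp3-fusion cells and 2.03-fold in GFP- CD25+ cells than in GFP- CD25- cells. As deposited the folds were 1.78, 2.94 and 1.79 in that order, so only the Foxp3-fusion difference passed 2-fold on both scales. The second Birc3 probe set gave -0.08, -0.16 and 0.37 log2 in the same order. Birc2, its paralog, was higher by 2.54-fold in Foxp3-fusion cells, and Traf2, an adaptor of TNF receptors, by 2.03-fold in Foxp3-null cells (1.93-fold as deposited), each over GFP- CD25- cells. In Foxp3-null over Foxp3-fusion cells, 1 of 16 was higher, the adaptor gene Traf5, and 1 lower, Malt1, against 9.53% and 9.15% of all genes. Traf5 was 2.23-fold higher on its main probe set and at least 2.18-fold lower on its second. Map3k14, which encodes the kinase that starts the alternative route, was under the floor on all 4 arrays. Bcl10, another listed gene, differed by probe set. Its main one gave 0.35 log2 in Foxp3-null, -0.16 in Foxp3-fusion and 0.21 in GFP- CD25+ cells over GFP- CD25- cells. On 2 others Foxp3-fusion cells were 3.68-fold and 4.10-fold higher than GFP- CD25- cells. There Foxp3-null cells were 2.99-fold and 4.51-fold lower than Foxp3-fusion cells, but 1.42-fold higher on the main one.

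Among negative regulators outside the IkB family, Tnip1 ran like Tnfaip3. Tnip1, which encodes a partner of A20, read 9.72 log2 in Foxp3-null cells, 9.33 in Foxp3-fusion cells, 8.41 in GFP- CD25+ cells and 8.05 in GFP- CD25- cells. Over GFP- CD25- cells it was 3.19-fold higher in Foxp3-null cells (2.55-fold as deposited) and 2.43-fold higher in Foxp3-fusion cells (2.88-fold as deposited). Itch, a ubiquitin ligase that works with A20, fell below GFP- CD25- cells by 3.87-fold in Foxp3-null cells and 2.81-fold in Foxp3-fusion cells on its main probe set. Its other measured probe sets gave 0.20 and 0.34 log2 in Foxp3-null cells and did not share that difference. Otulin, a deubiquitinase of linear chains, exceeded GFP- CD25- cells by at least 2.19-fold in Foxp3-fusion cells and was under the floor in the other 3 populations. With 12 of 13 listed genes named on the array, the counts over GFP- CD25- cells were 1 of 9 measured higher and 1 lower for Foxp3-null cells, 2 of 10 higher and 1 lower for Foxp3-fusion cells, and 0 of 9 in either direction for GFP- CD25+ cells. The shares of all genes were 10.4% and 7.16%, 9.64% and 5.06%, and 3.93% and 4.39% in that order, which is close to these counts.

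Of the known targets of the pathway, 25 of 26 listed genes were named on the array, and on main probe sets none measured was 2-fold lower than in GFP- CD25- cells. Cflar, an inhibitor of caspase activation, was 1.53-fold lower in Foxp3-null cells on its main probe set, but at least 9.18-fold and 2.25-fold lower on 2 others. A further Cflar probe set above the floor on all arrays did not share this, at 1.24-fold higher (1.03-fold lower as deposited). The 2-fold mark was passed upward by 7 of 18 measured targets in Foxp3-null cells, 10 of 20 in Foxp3-fusion cells and 6 of 18 in GFP- CD25+ cells, where 10.4%, 9.64% and 3.93% of all genes did so. The medians were 0.27, 0.99 and 0.38 log2, against 0.18, -0.05 and 0.09 for all genes, and the list was written with earlier results of these data known. Cd83, a surface marker of activated lymphocytes, was under the floor in GFP- CD25- cells, so its folds are bounds: 26.1-fold or more in Foxp3-null cells, 45.1-fold or more in Foxp3-fusion cells and 3.99-fold or more in GFP- CD25+ cells. Tnfrsf4, which encodes the costimulator OX40, was 6.74-fold, 10.2-fold and 2.90-fold higher in that order. Likewise the TNF receptor family costimulator genes Tnfrsf9 (6.43-fold, 8.17-fold and 4.53-fold) and Tnfrsf18 (4.88-fold, 7.43-fold and 2.70-fold) were higher in all 3. Ltb, which encodes the TNF family ligand lymphotoxin-beta, was higher by 2.89-fold in Foxp3-null cells and by 2.25-fold in Foxp3-fusion cells. Ccr7, a chemokine receptor gene of mature thymocytes, was 2.17-fold higher in Foxp3-null cells (1.66-fold as deposited) and 2.04-fold higher in Foxp3-fusion cells. Gadd45b, a stress-induced gene, passed 2-fold in GFP- CD25+ cells alone, at 2.48-fold.

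Some targets separated the GFP+ populations. In Foxp3-null over Foxp3-fusion cells, 3 of 20 targets were 2-fold lower (Irf4, Ccl5 and Myc) and 0 higher, where 9.15% of all genes were lower and 9.53% higher, so the count is near the background. In values as deposited 10 of 19 were lower and 0 higher, against 18.6% and 4.65% of all genes. Irf4, a transcription factor of effector and regulatory T cells, read 5.51 log2 in Foxp3-null cells, 7.33 in Foxp3-fusion cells, 5.46 in GFP- CD25+ cells and 5.54 in GFP- CD25- cells. The Foxp3-null value was 3.54-fold below the Foxp3-fusion value (5.05-fold as deposited). Ccl5, a chemokine gene, was 5.51-fold lower and Myc was 3.10-fold lower. Nfkb2 differed in the other direction in this comparison, by the 5.78-fold given above. Traf1, an adaptor gene and known target, differed by probe set. Its second one showed 2.01 log2 in Foxp3-null, 1.70 in Foxp3-fusion and 1.29 in GFP- CD25+ cells over GFP- CD25- cells. There Foxp3-null over Foxp3-fusion cells gave 0.31 log2, and -0.33 as deposited. Its main probe set gave -0.35, 0.42 and 0.19 log2 over GFP- CD25- cells in the same order. On it, Foxp3-null over Foxp3-fusion cells gave -0.77 log2, and -1.41 as deposited.

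**Figure D4:**
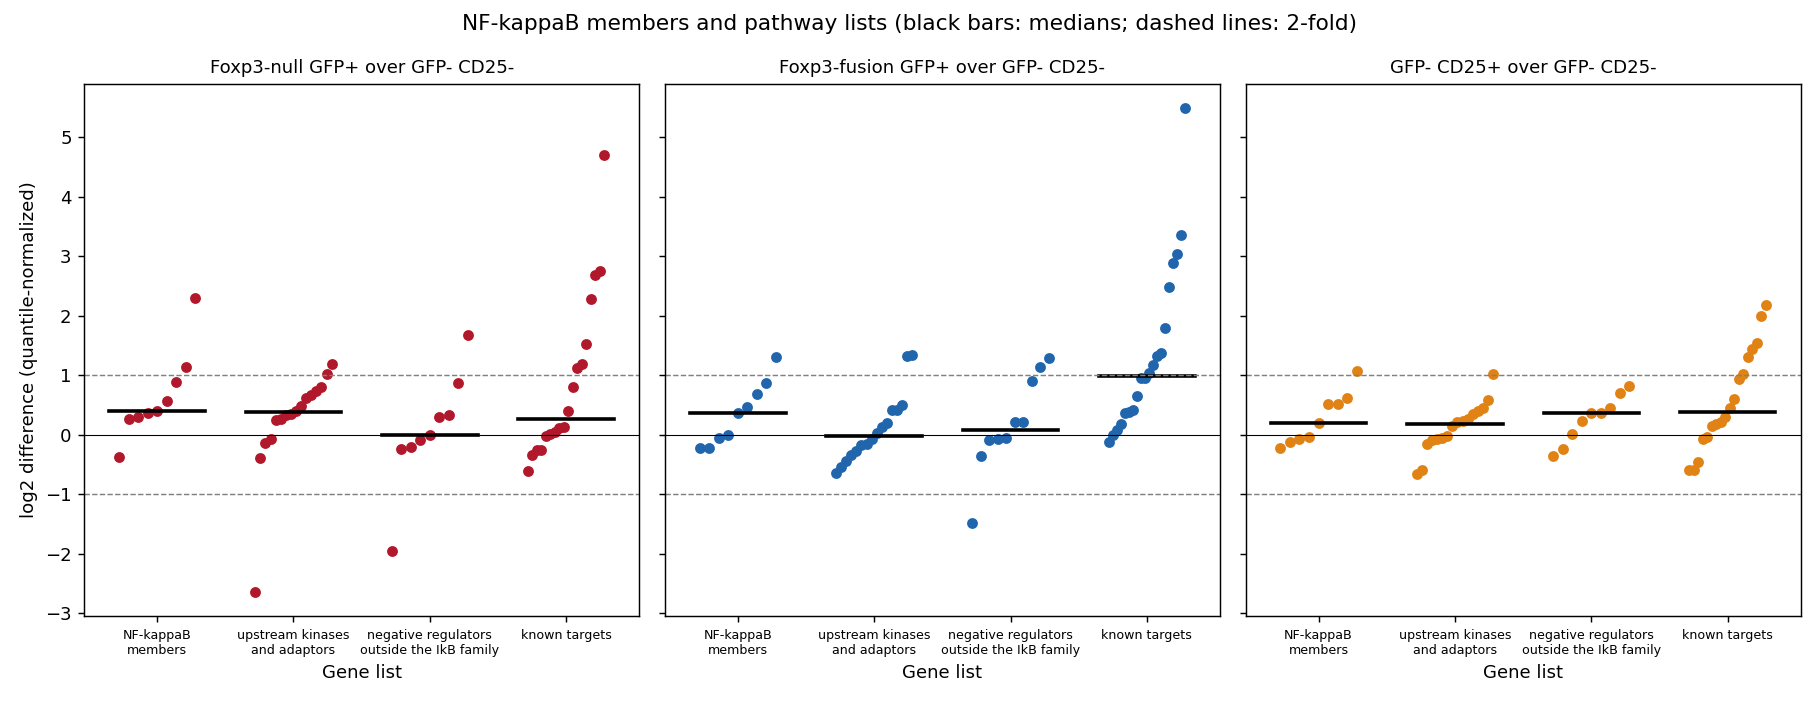
Log2 difference from the GFP- CD25- array for the main probe sets of the genes described here and of 3 pathway lists, in quantile-normalized values, with 1 point per gene, black bars for medians, dashed lines at 2-fold and bounds drawn at the bound. The medians of the first list were 0.39, 0.36 and 0.20 log2 in Foxp3-null, Foxp3-fusion and GFP- CD25+ cells, and the median of the known targets was highest in Foxp3-fusion cells at 0.99.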

How the data were processed

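Column-purified RNA of sorted cells went through 2 amplification rounds before hybridisation, per the labels' protocols. The deposited table holds 1 log2 value per probe set and array. The log base was read from the span of the values, and the sources used here do not name the authors' background correction, summarisation or normalization. The Foxp3-null array's group rests on its title and strain entry, since its description repeats the text of the fusion mice.

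Of 45101 probe sets, 64 controls were dropped. The platform annotation gave 1 gene to 34945 probe sets, several to 932 and none listed to 9160. Symbols were updated by gene identifier in the RefSeq table, which held 34741 of the 34945. Column means lay within 0.06 of each other, but 90th percentiles differed by more than the limit of 0.2, so values were quantile normalized. The floor is the highest, over arrays, of the 90th percentile of 37 genes silent in thymocytes, of 43 listed (3.92 log2 on the deposited scale). Values under it were set to it, and a difference with 1 side at it is a bound.

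With 1 array per group there was no test. A 2-fold difference was the counting rule in 6 comparisons. The genes, lists and rules were chosen with earlier results of these data known. Named are all genes of the group, other genes whose symbol starts with Nfkb, list genes at least 2-fold apart in normalized values in the comparisons for which that list is described, and the 3 genes of nearest profile where a gene spanned at least 1 log2. Traf1, Cflar, Map3k14 and Bcl10 were added after their values were seen. Scripts in Python 3.11.15 with pandas 2.3.3 were tested on simulated data. Alternatives were the deposited scale, median centring, no floor, a higher floor, the median over probe sets, only probe sets specific to 1 transcript by name, and 1.5-fold and 3-fold thresholds.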

Additional observations from a re-analysis of the deposited data

How the results depend on the processing

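No paired analysis was possible because each group had 1 array. Nfkb2 was at least 2-fold higher in Foxp3-null than in Foxp3-fusion, GFP- CD25+ and GFP- CD25- cells under every alternative run that gave it a value, and it had none when only probe sets named as specific to 1 transcript were kept. The number of genes 2-fold apart moved by over 1.5 times in the following cases, and the cause was not tested. Brackets give the share of all measured genes that passed in either direction under the same setting. In values as deposited it was 1 in Foxp3-null (16.4%), 2 in Foxp3-fusion (17.7%) and 0 in GFP- CD25+ cells (9.53%), each over GFP- CD25- cells. Over GFP- CD25+ cells it was 2 in Foxp3-fusion cells (23.4%) and 1 in Foxp3-null cells (13.8%). Median centring gave 1 in Foxp3-null over Foxp3-fusion cells (20.6%) and 2 in Foxp3-fusion over GFP- CD25+ cells (21.0%). The higher floor gave 1 in Foxp3-null over Foxp3-fusion cells (17.65%). With the median over probe sets it was 2 in Foxp3-fusion (11.9%) and 0 in GFP- CD25+ cells (6.55%), each over GFP- CD25- cells. It was 1 in Foxp3-null over GFP- CD25+ cells (11.9%). With those specific probe sets, which left 5 genes, it was 1 in Foxp3-null (17.1%) and 0 in GFP- CD25+ cells (8.28%), each over GFP- CD25- cells. In Foxp3-null cells it was also 1 over Foxp3-fusion cells (18.2%) and 1 over GFP- CD25+ cells (15.6%). At 1.5-fold it was 3 in Foxp3-fusion (31.5%) and 2 in GFP- CD25+ cells (24.3%), each over GFP- CD25- cells. It was 5 in Foxp3-fusion over GFP- CD25+ cells (39.9%). At 3-fold it was 0 in GFP- CD25+ over GFP- CD25- cells (2.46%). In Foxp3-fusion cells it was 0 over GFP- CD25- (5.09%) and over GFP- CD25+ cells (6.53%). In Foxp3-null cells it was 1, Nfkb2, over GFP- CD25- (5.68%), Foxp3-fusion (6.03%) and GFP- CD25+ cells (4.99%). Of 283 single differences recomputed, 12 moved by more than 1.5-fold and 271 did not, and none of the 2-fold ones changed direction. Many of the 271 could not move, so their number does not measure stability. The 30 with only specific probe sets used the same main probe sets. Most of the 54 without a floor had both sides above it and kept their value. The higher floor left bright genes unchanged, and the median over probe sets left genes with 1 probe set unchanged. Signals near the floor limit what can be said of Relb, Rel and Nfkbib.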
